A study of Nothobranchius furzeri with 8 samples.

Results

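The microRNA families mir-23, mir-24 and mir-27 were followed in small RNA libraries from the brain of the turquoise killifish, Nothobranchius furzeri, an annual fish with a very short life. The members are the 3 rows of the deposited count table with these names, taken by name and not by their values, out of 324 rows (235 named families and 89 predicted miRNAs). All animals were males of the strain MZM-04/10p, and all libraries were labelled brain, with no treatment named. The groups were 4 libraries at 6 weeks and 4 at 26 weeks by the age label; the older titles read 22 instead, and the age label was followed. The libraries carry the numbers I to IV within each age. The labels do not say that each library came from a separate fish, so p-values measure the spread between these libraries, which may be technical.

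In vertebrates the members of 1 copy of this cluster are made from 1 primary transcript, which Drosha and Dicer cut into separate mature miRNAs. Each mature miRNA then loads into an Argonaute protein and represses transcripts that match its seed, the short stretch near its 5′ end. Vertebrate genomes hold the cluster in several copies. In mice the cluster is abundant in endothelial cells of blood vessels, where mir-23 and mir-27 promote vessel growth. In zebrafish and mice mir-24 acts against vessel formation. In mice mir-23 also represses lamin B1 and so favours the maturation of oligodendrocytes, and in mammals mir-27 represses the fat cell regulator PPAR gamma. A row of the table sums a whole family with no arm and no gene copy given, so nothing can be said here about single copies or arms. Sequences and genomic positions of the members are not used here.

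Total counts ran from 2992917 to 4151620 at 6 weeks and from 3347810 to 5715409 at 26 weeks. Levels are given as CPM, a family's count relative to the library size, after scaling by TMM, a method that sets the typical feature equal between libraries. The defining brain families were present in all libraries: mir-9 averaged 69254 CPM at 6 weeks and 71456 CPM at 26 weeks, and mir-124 averaged 3928 and 7453 CPM. The scaling factors ran from 1.02 to 1.16 at 6 weeks and from 0.861 to 1.11 at 26 weeks. With all factors at 1 the median log2 change of the 212 tested features was -0.29, against -0.06 with TMM. Ligation of adapters favours some small RNAs over others, so levels of different families are less comparable than levels of 1 family across libraries.

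The cluster was higher in the older brain, and mir-27 carried most of it. Together the 3 families took 1.53 ± 0.129% of all counts in the younger brain and 2.39 ± 0.231% in the older one (SD, n = 4 each). In the 6-week libraries I to IV the share was 1.33%, 1.58%, 1.60% and 1.59%, and in the 26-week libraries it was 2.12%, 2.61%, 2.54% and 2.27%. All 4 older libraries lay above all 4 younger ones, and the library numbered I was the lowest at each age. The difference in means was 0.859 percentage points (exact two-sided permutation p = 0.0286, n = 4 each, the lowest value that free reassignment of these libraries allows). That test ignores the library numbers. Swaps within numbers gave an exact p of 0.125, the lowest value that 4 pairs allow.

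Within the cluster the order of levels was mir-27, mir-23, mir-24 in 8 of 8 libraries. At 6 weeks mir-27 made up 93.98 ± 0.904% of the cluster's counts, mir-23 4.67 ± 0.435% and mir-24 1.34 ± 0.487%. At 26 weeks the same shares were 94.5 ± 0.651%, 4.45 ± 0.335% and 1.04 ± 0.327% (SD, n = 4 each), and for each family the ages overlapped. By mean CPM over the 8 libraries, mir-27 was the 11th of 173 tested named families, mir-23 the 54th and mir-24 the 81st. The neighbours of mir-27 in this order were mir-22 (mean 19284 CPM) above and mir-132 (18652 CPM) below, against 19015 CPM for mir-27. Around mir-23 (903 CPM) stood mir-7 (913 CPM) and mir-301 (869 CPM), and around mir-24 (222 CPM) stood mir-821 (225 CPM) and mir-184 (214 CPM). Each of these 6 neighbours overlapped its member in range over the libraries, so the local order is not resolved.

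The most abundant member, mir-27, rose with age. Its levels in the 6-week libraries I to IV were 10634, 13575, 14839 and 14358 CPM. In the 26-week libraries they were 17838, 28846, 27296 and 24736 CPM. Every older library was above every younger one, and the library numbered I was lowest at both ages. Among all 324 features mir-27 stood between the 13th and the 17th place in the younger libraries and between the 8th and the 12th in the older ones. The change was 1.85-fold, with a log2 fold change of 0.89 ± 0.17 (SE, edgeR's quasi-likelihood test, Benjamini-Hochberg adjusted p = 0.0111).

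The middle member, mir-23, rose by a similar factor. It was at 598, 695, 692 and 644 CPM in the 6-week libraries I to IV, and at 936, 1255, 1238 and 1163 CPM in the 26-week libraries. The ages did not overlap, and the 6-week values lay close together, with a coefficient of variation of 6.99% against 12.8% at 26 weeks. The change was 1.75-fold, or 0.80 ± 0.14 on the log2 scale (SE, edgeR, Benjamini-Hochberg adjusted p = 0.0109).

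The scarcest member, mir-24, did not pass the test. It was at 234, 177, 191 and 136 CPM in the 6-week libraries I to IV, and at 290, 243, 280.0 and 227 CPM in the 26-week libraries. The ages overlapped, since the 6-week library I was above the 26-week library IV. The log2 fold change was 0.49 ± 0.21 (SE, edgeR, Benjamini-Hochberg adjusted p = 0.151, unadjusted p = 0.0392), on means of 185 ± 40.3 CPM and 260 ± 29.7 CPM (SD, n = 4 each). In a fit blocked by library number, which compares libraries of the same number, the value was 0.51 ± 0.15 and passed (edgeR, Benjamini-Hochberg adjusted p = 0.0407).

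**Figure D1:**
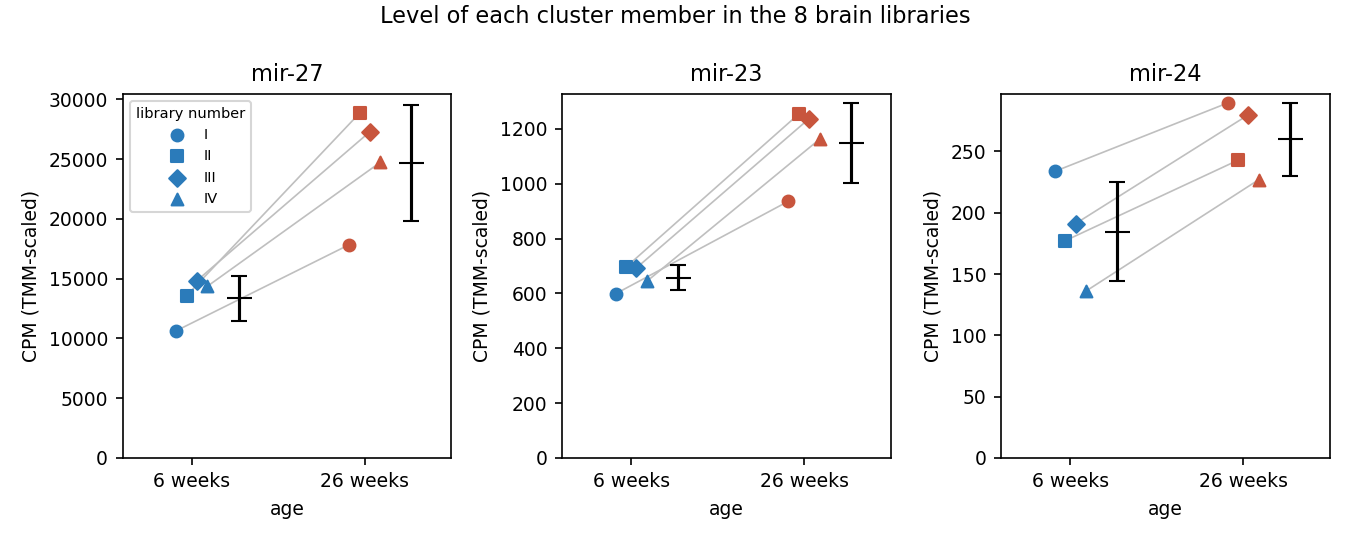
Level of mir-27, mir-23 and mir-24 (CPM after TMM scaling, linear axes from 0) in each brain library by age; symbols give the library number, grey lines join libraries of the same number, and bars are the mean and SD of 4 libraries. The ages do not overlap for mir-27 and mir-23, whereas for mir-24 the 6-week library I, at 234 CPM, lies above the 26-week library IV, at 227 CPM.

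Thus 2 of the 3 members were called higher, where 10.4% of the 212 tested features were called higher at an adjusted p under 0.05. That fit does not use the library numbers. With the number as a block 3 of 3 were called higher, where 16.5% of features were. In the blocked fit mir-27 was at 0.87 ± 0.09 and mir-23 at 0.80 ± 0.11 (log2, SE, edgeR, Benjamini-Hochberg adjusted p = 0.00162 and 0.00507). In CPM the groups did not overlap for 2 of 3 members, against 14.2% of features that were higher with no overlap. In plain shares of all counts, which use no scaling factor, the groups did not overlap for the same members, mir-27 and mir-23, against 8.96% of features. The median log2 change over the 3 members was that of mir-23, 0.80, and over all tested features it was -0.06. Ordered from the highest to the lowest signed log2 fold change, mir-27 was the 15th, mir-23 the 17th and mir-24 the 39th of 212 features. Since members of 1 copy share a primary transcript in vertebrates, the 3 members are not independent draws to set against these percentages.

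**Figure D2:**
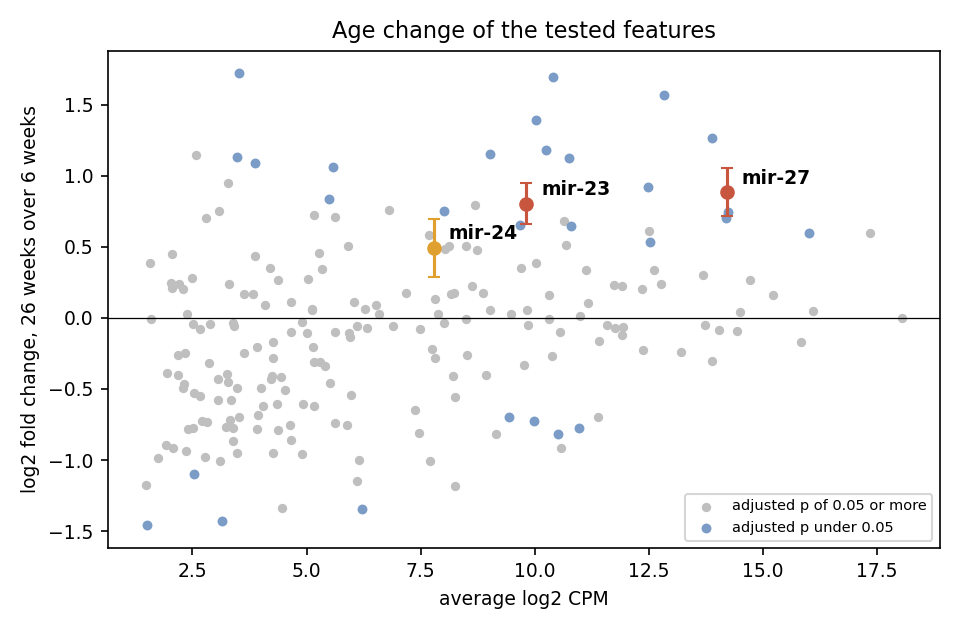
Log2 fold change of each tested feature (26 weeks over 6 weeks, edgeR) against its average log2 CPM; blue points passed an adjusted p of 0.05, and the members carry error bars of 1 SE. The 3 members lie above 0, at 0.89 for mir-27, 0.80 for mir-23 and 0.49 for mir-24, and mir-24 did not pass.

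Depth was higher on average in the older libraries, though the ages overlapped. Only the 26-week library I, at 3347810 counts, lay below the highest younger library, at 4151620 counts. Depth thus went largely with age, and a fit with both cannot part them cleanly. The younger libraries averaged 3372290 ± 530455 counts and the older ones 4740660 ± 1050300 (SD, n = 4 each, exact permutation p = 0.0571). In a fit with the log2 of the total as a covariate, mir-27 was at 0.48 ± 0.14 and mir-23 at 0.56 ± 0.16, and neither passed (edgeR, Benjamini-Hochberg adjusted p = 0.102 for each). That fit called 0 of 3 members, where 1.89% of features were called higher. In it mir-24 was at 0.56 ± 0.28 (edgeR, Benjamini-Hochberg adjusted p = 0.313). With total counts alone as the scaling, and with upper-quartile factors, 2 of 3 members were called, against 7.08% of features called higher in each. The log2 fold changes were then 0.65 and 0.72 for mir-27, 0.57 and 0.64 for mir-23, and 0.28 and 0.34 for mir-24. Relative to the median of all tested features, mir-27 stood at 0.95 with TMM, 0.94 with total counts and 0.96 with upper-quartile factors. Such scalings shift all features of a library alike, so this distance is nearly fixed by how they are built. With the depth covariate it was 0.43 for mir-27, 0.51 for mir-23 and 0.51 for mir-24.

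Counting error was small beside the spread between libraries. For mir-27, counted 37033 to 142025 times a library, the relative counting error was at most 0.520%. For mir-24, counted 443 to 1323 times, it was at most 4.75% at 6 weeks and 3.34% at 26 weeks, whereas its coefficient of variation between libraries was 21.8% and 11.4%. These errors cover counting only, since reads without molecular identifiers are not independent molecules.

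Within an age, mir-24 did not vary in step with its partners in every library number. The libraries numbered I held the lowest mir-27 and mir-23 of their age and also the highest mir-24. As a deviation from the 6-week mean on the log2 scale, the 6-week library I was at -0.32 for mir-27, -0.13 for mir-23 and 0.37 for mir-24. The 26-week library I was at -0.44, -0.28 and 0.16 from the mean of its own age for the same families. The libraries numbered IV had the lowest mir-24 at each age, at -0.41 and -0.19 from the mean. In the 6-week library IV mir-23 was also below its mean, at -0.028. In the 26-week library IV mir-27 and mir-23 were above theirs, at 0.027 and 0.028. The libraries numbered II had mir-24 below the mean of its age, at -0.032 and -0.090. Both partners were above it there, mir-27 at 0.036 and 0.25 and mir-23 at 0.084 and 0.14. In the libraries numbered III each member was above the mean of its age. There mir-24 was at 0.077 at 6 weeks and 0.11 at 26 weeks, and mir-27 at 0.16 and 0.17.

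Differences between libraries of the same number were positive for all 3 members in 4 of 4 pairs. For mir-27 and mir-23 this follows from ages that did not overlap. How many of all tested features did the same was not counted. For mir-27 the log2 differences (26 weeks minus 6 weeks) were 0.75, 1.09, 0.88 and 0.78 for I to IV. For mir-23 they were 0.65, 0.85, 0.84 and 0.85, and for mir-24 0.31, 0.45, 0.55 and 0.74. The pair numbered I gave the smallest difference for each member. Without both libraries numbered I, the log2 fold changes were 0.90 ± 0.13 for mir-27, 0.83 ± 0.15 for mir-23 and 0.55 ± 0.22 for mir-24 (edgeR, Benjamini-Hochberg adjusted p = 0.00315, 0.00930 and 0.101). This left 2 of 3 members called, against 14.2% of features called higher in that fit.

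Ratios between members within a library do not depend on scaling, and they asked whether the members changed by different factors. The ratio of mir-27 to mir-23 counts was 17.8, 19.5, 21.4 and 22.3 in the 6-week libraries I to IV and 19.0, 23.0, 22.1 and 21.3 in the 26-week libraries. These values overlapped widely. The mean log2 ratio was 4.33 ± 0.15 in the younger brain and 4.41 ± 0.12 in the older one (SD, n = 4 each), a difference of 0.08 ± 0.09 (SE, exact two-sided permutation p = 0.457).

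The ratio of mir-27 to mir-24 varied far more. It was 45.5, 76.6, 77.7 and 106 in the 6-week libraries and 61.6, 119, 97.5 and 109 in the 26-week libraries. The ages overlapped, the library numbered I had the lowest ratio at each age, and the older library of each number was above the younger one in 4 of 4 pairs. The difference in mean log2 ratio was 0.36 ± 0.33 (SE, n = 4 each, exact permutation p = 0.314).

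The ratio of mir-23 to mir-24 behaved alike in this respect, being higher at 26 weeks in 4 of 4 pairs. It ran from 2.56 to 4.73 at 6 weeks and from 3.23 to 5.17 at 26 weeks, and the difference in mean log2 ratio was 0.28 ± 0.24 (SE, n = 4 each, exact permutation p = 0.314). After Benjamini-Hochberg adjustment over the 3 ratios each exact permutation p was 0.457. The spread within an age followed the library numbers, so the ratios were also compared within numbers, an alternative chosen after the data were seen. For mir-27 to mir-24 the log2 differences between ages (26 weeks minus 6 weeks) were 0.44, 0.63, 0.33 and 0.046 for I to IV, a mean of 0.36 with a paired SE of 0.12. For mir-23 to mir-24 they were 0.34, 0.40, 0.29 and 0.11, a mean of 0.28 with a paired SE of 0.06. For mir-27 to mir-23 they were 0.10, 0.24, 0.041 and -0.068, with a paired SE of 0.06. The exact two-sided test over all 16 swaps within numbers gave p = 0.125 for each ratio to mir-24, the lowest value that 4 pairs allow, and p = 0.375 for mir-27 to mir-23 (adjusted over the 3 ratios, 0.188, 0.188 and 0.375). The difference of mir-24 was thus smaller than that of each partner in 4 of 4 numbers, but neither the free permutation test nor the exact swap test passed. The exact swap test on 4 pairs cannot reach 0.05, so that test cannot decide whether mir-24 changed by a smaller factor. No other paired test of the ratios was run.

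**Figure D3:**
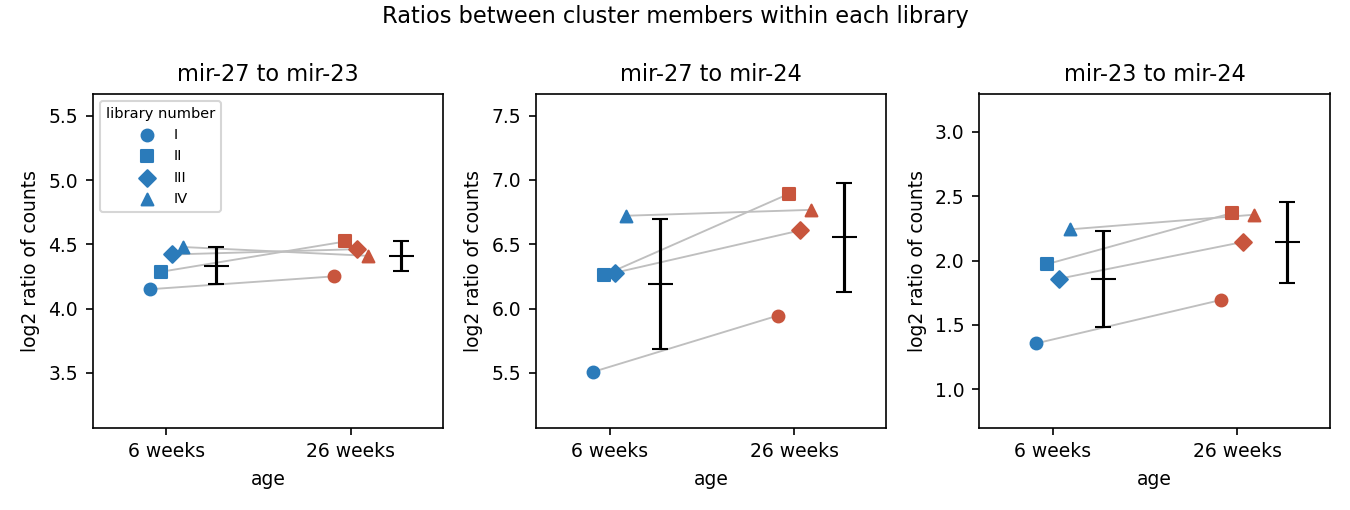
Log2 ratio of the counts of 2 members within each library, by age (all 3 axes span the same range of log2 units); symbols give the library number, grey lines join the same number, and bars are the mean and SD of 4 libraries. The ratio of mir-27 to mir-23 stays between 4.15 and 4.52, whereas both ratios to mir-24 spread over more than 1 unit. All 3 ratios are lowest at each age in the library numbered I.

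Other pairs that vertebrates make from 1 cluster were set beside these ratios. For the erythroid pair, the log2 ratio of mir-451 to mir-144 went from -0.66 ± 0.14 to 0.43 ± 0.33 (SD, n = 4 each), and the ages did not overlap (exact permutation p = 0.0286). Swaps within library numbers gave an exact p of 0.125 for this ratio, the lowest value that 4 pairs allow. For mir-145 and mir-143 of vessel wall cells, the log2 ratio of mir-145 to mir-143 went from -5.28 ± 0.40 to -4.93 ± 0.37 (n = 4 each, exact permutation p = 0.229). For mir-217 and mir-216 it was -0.56 ± 0.29 and -0.46 ± 0.22 (n = 4 each, exact permutation p = 0.629). Whether the ratios of the mir-23, mir-24 and mir-27 cluster changed less than that of mir-451 to mir-144 was not tested.

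Profiles over the 8 libraries were compared by the root mean square difference of log2 CPM after each family's own mean was taken away, so that a smaller value means a more similar course. Of 172 other families, mir-23 was the nearest to mir-27, at 0.12, followed by mir-132, which responds to neuronal activity (0.14), and mir-22 (0.16). Nearest to mir-23 were mir-22 (0.09), mir-132 (0.10) and mir-455 (0.12), with mir-27 in the 4th place (0.12). The age change is part of this distance, so families at a small distance from a rising member were bound to rise by a similar amount. Their log2 fold changes were 0.74 ± 0.13 for mir-22, 0.70 ± 0.14 for mir-132 and 0.66 ± 0.15 for mir-455 (SE, adjusted p = 0.0109, 0.0126 and 0.0179 by edgeR with Benjamini-Hochberg adjustment). With upper-quartile factors mir-132 and mir-455 were no longer called (edgeR, Benjamini-Hochberg adjusted p = 0.0545 and 0.0622). Scaling by total counts also ended the call of mir-455 (adjusted p = 0.0567), and with depth as a covariate 0 of the 3 were (adjusted p from 0.0654 to 0.223).

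For mir-24 the nearest families were mir-460 (0.20), mir-139 (0.24) and mir-423 (0.25), at larger distances than those of its partners. The family mir-23 came 25th for mir-24 (0.33) and mir-27 came 61st (0.44). Of the 3 nearest, mir-139 rose by 0.64 ± 0.15, mir-460 was at 0.47 ± 0.15 and mir-423 at 0.17 ± 0.16 (log2, edgeR, Benjamini-Hochberg adjusted p = 0.0179, 0.0710 and 0.506). With the number as a block mir-460 passed (adjusted p = 0.0361), and the call of mir-139 was lost with upper-quartile factors, total counts and the depth covariate (edgeR, Benjamini-Hochberg adjusted p = 0.0541, 0.0717 and 0.189).

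**Figure D4:**
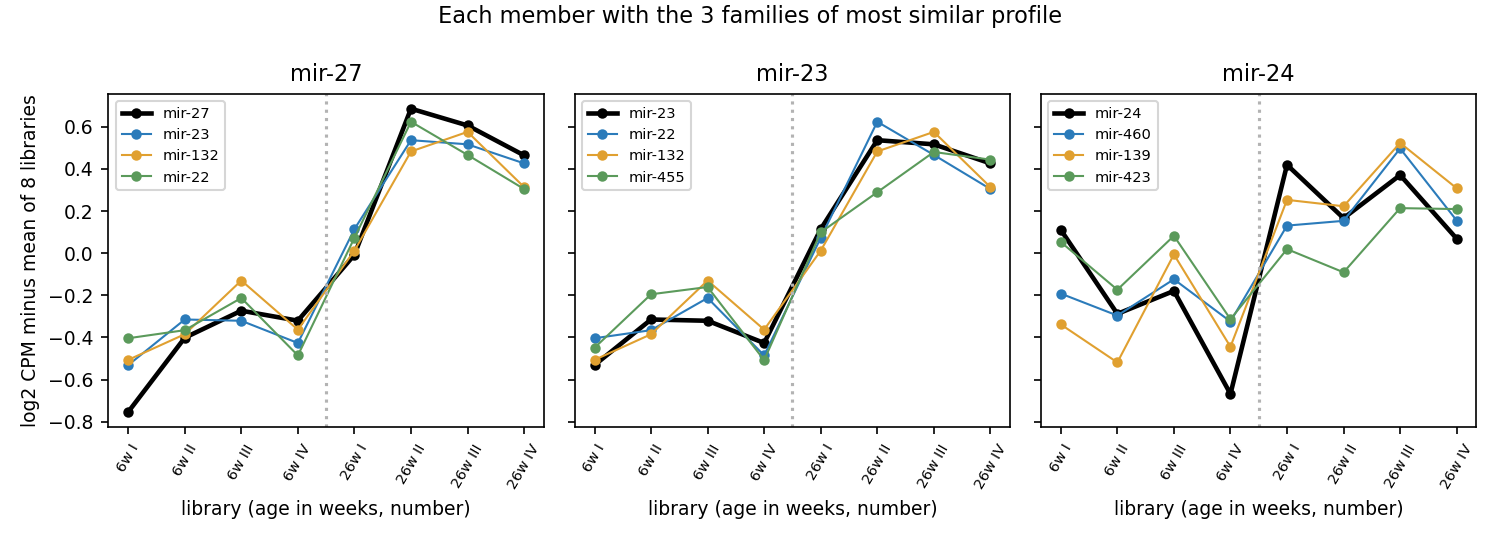
Log2 CPM of each member (black) and of the 3 families with the most similar course (coloured), each with its mean over the 8 libraries taken away; the dotted line parts the 6-week from the 26-week libraries. The courses of mir-27 and mir-23 run close to their neighbours, which were picked for that likeness. Measured instead from the mean of the same age, mir-24 at 6 weeks ran from 0.37 above to 0.41 below, and mir-27 from 0.16 above to 0.32 below. At 26 weeks mir-24 ran from 0.16 above to 0.19 below its 26-week mean, and mir-27 from 0.25 above to 0.44 below.

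The family mir-128 is a neuronal miRNA whose seed overlaps that of mir-27, shifted by 1 base, so that the target sets of mir-27 and mir-128 overlap in part. It did not pass in either direction, with a log2 fold change of -0.17 ± 0.09 (SE, edgeR, Benjamini-Hochberg adjusted p = 0.250). Its level was 61779 ± 3676 CPM in the younger brain and 55000 ± 4541 CPM in the older one (SD, n = 4 each). Of the summed counts of mir-27 and mir-128, mir-27 took 15.1%, 17.5%, 18.4% and 19.9% in the 6-week libraries I to IV and 23.4%, 32.7%, 35.2% and 32.2% in the 26-week libraries. All older libraries were above the younger ones, and the mean went from 17.7 ± 2.00% to 30.9 ± 5.14% (SD, n = 4 each; this share was added after the data were seen and was not tested). The share largely restates the rise of mir-27 beside a family with no called change, and shares beside other families were not computed. The summed level of mir-27 and mir-128 was 75131 ± 4745 CPM and 79679 ± 5746 CPM (n = 4 each).

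Marker families of cell types present in brain tissue were read beside the cluster, starting with the vessel wall. Of the 3 vessel wall families 0 passed by edgeR with TMM over all features, with 2 at an unadjusted p under 0.05. Of all 212 tested features, 62 had an unadjusted p under 0.05 in that fit, in either direction. The family mir-145 passed by DESeq2 and by limma-voom. It also passed by edgeR with RLE factors, another scaling, and without the filter (Benjamini-Hochberg adjusted p = 0.0369 and 0.0489). With upper-quartile factors and total counts it missed (edgeR, adjusted p = 0.121 and 0.199). The ages did not overlap for mir-145, at 140 to 185 CPM and then 215 to 283 CPM. The endothelial mir-126 was at 0.61 ± 0.24, mir-145 at 0.58 ± 0.18 and mir-143 at 0.24 ± 0.18 (log2, edgeR, Benjamini-Hochberg adjusted p = 0.134, 0.0587 and 0.400). With the number as a block, mir-126 and mir-145 passed (edgeR, Benjamini-Hochberg adjusted p = 0.0241 and 0.0287), where 16.5% of features were called higher. With upper-quartile factors, total counts and the depth covariate, 0 of the 3 vessel wall families were called higher. There mir-126 was at 0.45, 0.37 and 0.13 (edgeR, Benjamini-Hochberg adjusted p = 0.207, 0.195 and 0.817). It passed without both libraries numbered I and without the 26-week library I alone (adjusted p = 0.0371 and 0.0245). The summed level of the list lay between 9021 and 13192 CPM in the younger libraries and between 10661 and 18554 CPM in the older ones, with overlap, and 0 libraries had a member at 0.

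The oligodendrocyte families mir-219 and mir-338 both rose, with log2 fold changes of 1.39 ± 0.28 and 1.26 ± 0.12 (SE, edgeR, Benjamini-Hochberg adjusted p = 0.0126 and 2.79e-04), and their sum lay between 8816 and 10346 CPM in the younger libraries and between 18659 and 26725 CPM in the older ones. That sum was mostly mir-338, which averaged 8953 and then 21491 CPM. Both astrocyte-linked families rose, mir-26 (0.60 ± 0.13) and mir-29 (1.69 ± 0.15), with a sum of 45236 to 58531 CPM and then of 65914 to 91742 CPM. Here mir-26 made up most of the sum, at means of 52214 and 78874 CPM. Of the 2 blood cell families 1 rose, mir-451, and the sum ran from 753 to 973 CPM and then from 1152 to 1311 CPM. Of 6 microglia and leucocyte families 3 rose, with an overlapping sum of 14776 to 19271 CPM and 12208 to 18990 CPM. Of 6 neuronal families 2 rose, mir-124 and mir-132, with overlapping sums of 164009 to 182313 CPM and 174385 to 189959 CPM. Scaling and depth moved these counts: with upper-quartile factors 2 oligodendrocyte, 1 astrocyte-linked, 1 blood cell, 2 leucocyte and 0 neuronal families were higher, with total counts alone 1, 2, 1, 0 and 1, and with depth as a covariate 2, 1, 0, 0 and 0. Of all 212 tested features, 10.4% were called higher with TMM, 7.08% with upper-quartile factors, 7.08% with total counts and 1.89% with the depth covariate. None of these 5 lists had a member at 0 in any of the 8 libraries. The part of these cell types in the rise of mir-23 and mir-27 was not tested, and in bulk brain RNA more cells of a type and more miRNA per cell cannot be told apart.

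Lists for tissue carried over in dissection held 0 called members by edgeR with Benjamini-Hochberg adjustment, where 30 of all 212 tested features were called in either direction. The lists are short, and mir-375 was at -1.19 ± 1.03 (log2, SE). The listed mir-206 (muscle) and mir-215 (liver and gut) had no row. Whether carry-over differed between the ages was not tested. The lists held 3 tested muscle families (summed 1107 to 1319 CPM in the younger and 1175 to 1604 CPM in the older libraries), 3 of liver and gut (93.8 to 120.03 CPM, 75.8 to 202 CPM) and 2 of pituitary and islet (1076 to 1635 CPM, 696 to 2250.2 CPM).

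**Figure D5:**
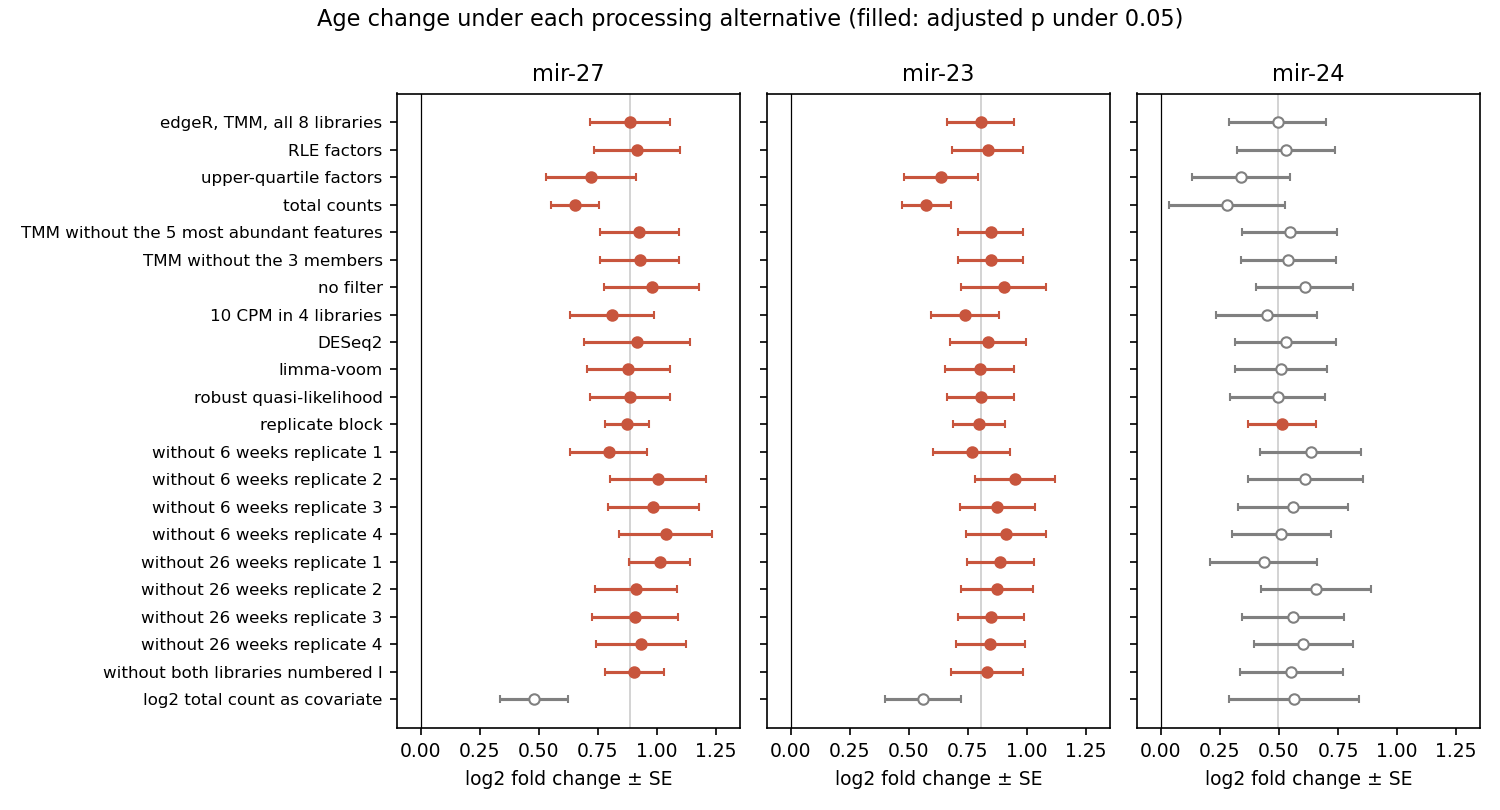
Log2 fold change (26 weeks over 6 weeks) with its SE for each member under each processing alternative, from another scaling to leaving out single libraries; filled points passed an adjusted p of 0.05. All values lie above 0; mir-27 and mir-23 passed in 20 of 21 alternatives and missed with the log2 of the total as a covariate, and mir-24 passed in 1, with the number as a block.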

How the data were processed

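Per the labels' protocols, total RNA of the brain was turned into libraries with Illumina's TruSeq smallRNA kit. The submitters' processing notes name BWA 0.7.12-r1039 and Trimmomatic 0.36, besides SAMtools 1.3.1-9 and bcl2fastq 1.8.4. The authors deposited raw whole-number counts per miRNA family; for genome build, annotation, counting rule and reads with several matches, the details were not given in the sources used here, and families with similar sequences could share reads.

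Members, lists and tests were chosen with earlier results of these data known. Counts were fitted in R 4.3.3 with edgeR 4.0.16 (quasi-likelihood, TMM, filterByExpr, 212 features tested, 112 left out with 0.00948% of the counts), two-sided, with Benjamini-Hochberg adjustment over all tested features at 0.05. Fold changes are 26 over 6 weeks, SE is the absolute log2 fold change over the square root of F, and log2 CPM used a prior count of 2. Ratios and shares had exact permutation tests in Python 3.11.15 over 70 assignments. No 2 libraries of an age were near copies (chi-square per degree of freedom at least 131).

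Named families were the members, mir-128, vessel wall and astrocyte-linked families, 2 cluster pairs, the 3 nearest profiles of each member and its neighbours in level. Deviations from the age means correlated across features by 0.287 to 0.528 between libraries of the same number and by at most 0.234 between different numbers. It follows from these ranges that for 8 of 8 libraries the highest correlation was with the library of the same number. The numbers were therefore read as pairing the libraries, though no label explains them. Alternatives were other scalings, filters, DESeq2 1.42.0, limma-voom (limma 3.58.1), a robust fit, the block, a depth covariate, an adjusted p of 0.1 and leaving out libraries.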

Additional observations from a re-analysis of the deposited data

Results flagged for a closer look

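Values far from the other 3 libraries of their age turned up in 4 of 60 groups of 4 libraries, where chance gives about 1 in 20, or 3. The share of counts in the cluster was 1.33% in the 6-week library I against 1.58% to 1.60% in the other 6-week libraries. The log2 CPM of mir-143 was 12.25 in the same library against 12.72 to 12.81. The log2 CPM of mir-460, the family nearest to mir-24 in profile, was 9.21 in the 26-week library III against 8.85 to 8.87. The log2 CPM of mir-821 was 8.16 in the 26-week library IV against 7.39 to 7.50.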

How the results depend on the processing

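All 21 refits kept mir-23, mir-24 and mir-27 above 0. The calls of mir-23 and mir-27 were lost with depth (the log2 total) as a covariate (0.56 and 0.48, edgeR, Benjamini-Hochberg adjusted p = 0.102 each), and mir-24 passed with the replicate block (0.51, adjusted p = 0.0407); the cause was not tested. Leaving out 1 library gave 0.77 to 0.95 for mir-23, 0.43 to 0.66 for mir-24 and 0.80 to 1.04 for mir-27, with no call gained or lost. Called features numbered 30, but 59 with the block, 50 without both libraries I, 4 with the covariate and 23 to 47 without 1 library (47 without the 26-week library I); the block made calls of mir-24, mir-126, mir-145 and mir-460 among the named families. Upper-quartile and total-count scaling changed the split from 22 higher and 8 lower to 15 and 11, and 15 and 12. Without both libraries I, the differences in the cluster's share (0.883 points) and in the log2 ratio of mir-451 to mir-144 (1.16) had an exact permutation p of 0.1, the smallest that 3 against 3 can give. Compared within numbers (replicate block), the same differences, 0.859 points and 1.08, had an exact p of 0.125, the smallest that 4 pairs can give. The difference in the log2 ratio of mir-217 to mir-216 ran from -0.028 (without the 6-week library IV) to 0.20 over single libraries left out. Uncalled log2 fold changes turned for mir-143 (-0.14, covariate), mir-144 (-0.12 upper quartile, -0.16 total counts), mir-423 (-0.049, total counts), mir-184 (0.11, without both I) and mir-7 (-0.092 upper quartile, -0.10 total counts, -0.010 without both I, and -0.44 to 0.52 without 1 library).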
